A study of Homo sapiens with 12 samples.

Results

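The amino acid stress response governed by the transcription factor ATF4 was followed through 10 genes, ATF4, DDIT3, TRIB3, CHAC1, SESN2, ASNS, PHGDH, PSAT1, SLC7A5 and SLC3A2, taken by symbol from a table of 26364 genes. All 10 were in the table and all 10 were among the 14297 genes that passed the filter on low counts. The cells were A2058, an established human line from a metastatic melanoma, and RNA was counted in 12 libraries, 3 in each of 4 groups. In the MITF overexpression group, cells had received a pLVX lentiviral vector carrying MITF, the lineage transcription factor of melanocytes and melanoma, and its control group had received the empty pLVX vector. Both vector groups had been selected with puromycin, and their virus was made in Lenti-X 293 HEK cells. In the MITF siRNA group, cells had been transfected with siRNA against MITF by Lipofectamine 2000 for 48 hours, and its control group had received a scrambled siRNA. All groups came from the same cell line. The labels do not state the promoter of the vector or the siRNA sequences. They number the libraries within each group as biological replicates, without saying whether these were separate cultures, so p-values reflect how far these libraries spread and no more.

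When amino acids run short, uncharged tRNA activates the kinase GCN2, which phosphorylates the initiation factor eIF2; general translation slows while ATF4 mRNA is translated more. ATF4 protein then binds C/EBP-ATF response elements and raises genes for amino acid synthesis and uptake, together with DDIT3, TRIB3 and CHAC1, which act in stress signalling and in its termination. Because ATF4 is controlled to a large extent in translation, its mRNA need not follow its activity. In melanoma cells ATF4 has been described as a repressor of MITF transcription. MITF itself binds E-box elements with the core CACGTG or CATGTG.

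The letters through which ATF4 and MITF are known to bind were searched in the promoters of the 10 genes, to show which of them carry such letters near an annotated start. RefSeq windows of 300 bases (250 before to 50 after an annotated start, assembly GRCh38.p14) were at hand for 10 of 10 genes, 17 windows in all. The C/EBP-ATF letters TGATGNAA, searched on both strands, stood in a window of 3 of the 10 genes, ASNS, CHAC1 and SLC3A2, against 4.46% of all 27305 genes in the collection (3.62% of its 35116 windows). The E-box CACGTG, which reads the same on both strands, stood in windows of 2 of the 10, ATF4 and SLC7A5, against 8.77% of all genes (7.26% of windows). The other E-box, CATGTG, was found on either strand only in a second window of SLC3A2, 1 of the 10, against 13.4% of all genes (11.1% of windows). None of the 3 sets of letters overlaps another. The stretches that hold TGATGNAA are given here 5′ to 3′ on the strand of the gene, with its 8 bases in capitals; in CHAC1 and SLC3A2 the element lies on the opposite strand and is read there in reverse complement.
ASNS, chr7:97872424-97872521, minus strand, element at bases -68 to -61 from the start: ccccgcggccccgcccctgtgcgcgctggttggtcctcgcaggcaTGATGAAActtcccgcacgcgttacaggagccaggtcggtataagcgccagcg
CHAC1, chr15:40953221-40953314, plus strand, element at bases -209 to -202: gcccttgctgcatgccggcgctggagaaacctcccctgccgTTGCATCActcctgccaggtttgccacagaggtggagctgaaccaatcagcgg
SLC3A2, chr11:62881725-62881748, plus strand, element at bases 38 to 45 downstream: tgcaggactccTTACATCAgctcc
The stretches with the E-box follow, with CACGTG in capitals.
ATF4, chr22:39520432-39520527, plus strand, E-box at bases -82 to -77: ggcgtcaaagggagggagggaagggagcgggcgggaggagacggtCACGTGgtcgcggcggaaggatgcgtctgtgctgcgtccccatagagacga
SLC7A5, chr16:87869587-87869682, minus strand, E-box at bases -130 to -125: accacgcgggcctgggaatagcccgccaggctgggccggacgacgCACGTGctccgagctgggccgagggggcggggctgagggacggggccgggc
A match describes these letters only, and binding was not measured. Letters outside these windows were not searched, so a gene without a match may still carry them elsewhere.

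The libraries held between 7427637 and 23938392 counts. MITF, the targeted gene, had 658, 679 and 633 CPM (counts scaled to library size by TMM) with the MITF vector and 299, 311 and 301 CPM with the empty vector. It had 343, 322 and 365 CPM with MITF siRNA and 504, 465 and 431 CPM with scrambled siRNA. The groups of each pair did not overlap, with log2 fold changes of 1.11 and -0.44, but the MITF siRNA libraries lay above the empty vector libraries. All 8 melanoma identity markers were detected, summing to 7777 to 8437 CPM with overexpression, 3843 to 4062 with empty vector, 5761 to 6442 with MITF siRNA and 7108 to 8087 with scrambled siRNA. With overexpression 6 of them were called higher and 2 lower (adjusted p under 0.05 by edgeR), where 59.4% of all tested genes were called. The 2 lower were TYRP1, averaging 84.5 CPM with overexpression and 203 CPM with empty vector, and S100B, averaging 296 and 424 CPM. PMEL, the largest part of the rise in the sum, averaged 2806 and 685 CPM. Of the markers of other cell types, KRT5 and CD3E had no count in any library. The summed epithelial list, of which 2 of 6 genes were tested, ran from 30.78 to 33.98 CPM with overexpression and from 55.41 to 58.63 CPM with empty vector. KRT18 made up most of this sum, averaging 30.2 and 54.6 CPM. The fibroblast list (4 of 7 tested) summed to 31.15 to 34.51 CPM with overexpression and 25.05 to 26.29 CPM with empty vector, mostly LUM (means 27.9 and 21.8 CPM). The immune list (2 of 5 tested) summed to 14.98 to 19.26 and 11.28 to 13.95 CPM in the same groups. The tested members of the immune list went opposite ways there: CD68 averaged 16.6 CPM with overexpression and 10.2 CPM with empty vector (log2 fold change 0.71, adjusted p = 1.12e-06 by edgeR), and LYZ averaged 0.398 and 2.11 CPM (log2 fold change -2.36, adjusted p = 6.48e-08). With MITF siRNA these sums ran from 33.61 to 35.67 (epithelial), 19.51 to 25.21 (fibroblast) and 19.56 to 22.56 CPM (immune), and with scrambled siRNA from 27.16 to 31.92, 17.35 to 20.05 and 15.92 to 16.72 CPM. Nuclear MALAT1 RNA took 1.22% to 1.27% of counts with overexpression, 0.48% to 0.666% with empty vector, 0.273% to 0.635% with MITF siRNA and 0.553% to 0.758% with scrambled siRNA. NEAT1, another nuclear RNA, averaged 8636 CPM with overexpression, 2349 with empty vector, 2104 with MITF siRNA and 4166 with scrambled siRNA. Within the MITF siRNA group NEAT1 ran from 844 to 3146 CPM. The part of these differences in the results below was not tested.

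MITF overexpression against empty vector asked what extra MITF does to these genes. DDIT3, TRIB3 and CHAC1, the stress signalling genes, rose 2.01-fold, 1.72-fold and 3.44-fold, and ATF4 itself rose 1.27-fold. Of the synthesis enzymes, PHGDH and PSAT1 rose 1.52-fold and 1.22-fold, and ASNS was not called. The 2 subunits of the large neutral amino acid transporter did not rise: SLC3A2 fell 1.23-fold and SLC7A5 was not called. In all, 7 of the 10 genes were called higher and 1 lower, at an adjusted p under 0.05 over all tested genes, where 59.4% of all tested genes were called, 28.6% higher and 30.8% lower. The median log2 fold change of the 10 was 0.32, against 0.0037 over all tested genes. The groups did not overlap for 7 of the 10 genes and for 65.2% of all tested genes. As this is RNA from whole cultures, fewer cells of a kind and less RNA per cell cannot be told apart.

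ATF4, the transcription factor at the head of the response, had 419.7, 414 and 388 CPM in MITF overexpression libraries and 327, 318 and 313 CPM in empty vector libraries. Every overexpression library lay above every empty vector library. The log2 fold change was 0.35 (SE 0.046, adjusted p = 4.825e-08). Adjusted p-values throughout come from edgeR quasi-likelihood tests, adjusted by Benjamini and Hochberg over all tested genes, unless another tool is named. DDIT3, also known as CHOP, encodes a transcription factor that ATF4 induces and that takes part in stress-linked cell death. It had 25.9, 31.8 and 24.0 CPM with overexpression, against 13.8, 11.6 and 14.9 CPM with empty vector. All overexpression libraries were higher, by a log2 fold change of 1.01 (SE 0.113, adjusted p = 2.224e-08). In RefSeq DDIT3 overlaps MARS, the methionyl-tRNA synthetase gene, and it was not given whether the counting used strand, so reads in the overlap are uncertain. MARS had 163, 162 and 152 CPM with overexpression and 155, 153 and 159.6 CPM with empty vector; its log2 fold change of 0.03 (SE 0.04, adjusted p = 0.58) was not called.

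TRIB3, a pseudokinase that DDIT3 and ATF4 induce and that restrains ATF4, had 51.8, 52.8 and 49.8 CPM in MITF overexpression libraries and 32.6, 24.4 and 31.2 CPM in empty vector libraries. The overexpression libraries were close together and all higher, with a log2 fold change of 0.78 (SE 0.075, adjusted p = 7.063e-11). CHAC1, an enzyme that breaks down glutathione, was the sparsest of the 10 with empty vector, at 12 to 19 counts a library, against 59 to 127 counts with overexpression. It had 5.79, 5.54 and 3.89 CPM with overexpression and 1.10, 1.65 and 1.92 CPM with empty vector. The lowest overexpression library was still above the highest empty vector library. Its log2 fold change of 1.78 (SE 0.226, adjusted p = 2.441e-08) stood at the 98.1 percentile of all tested genes. SESN2, a leucine sensor of the sestrin family that holds back mTORC1, had 17.3, 20.2 and 16.2 CPM with overexpression and 15.3, 16.5 and 13.0 CPM with empty vector. Its groups overlapped. The log2 fold change of 0.27 (SE 0.104, adjusted p = 0.02621) was lost without empty vector replicate 3 (0.19, adjusted p = 0.172) and without MITF overexpression replicate 2 (0.17, adjusted p = 0.215). It was also not called by DESeq2 (0.26, adjusted p = 0.0684).

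PHGDH, which catalyses the committed step of serine synthesis from a glycolytic intermediate, had 160.3, 171 and 159.8 CPM in MITF overexpression libraries and 112, 106 and 105 CPM in empty vector libraries. The groups were well apart, at a log2 fold change of 0.60 (SE 0.054, adjusted p = 1.397e-11). PSAT1, the aminotransferase that acts next in the same pathway, had 125, 117 and 114 CPM with overexpression and 95.4, 99.4 and 98.3 CPM with empty vector. It too was higher in all overexpression libraries, by 0.29 on the log2 scale (SE 0.051, adjusted p = 1.095e-05). ASNS, asparagine synthetase, is a classical ATF4 target. It had 5.79, 6.03 and 3.89 CPM with overexpression and 5.85, 6.88 and 6.57 CPM with empty vector. The groups overlapped and the log2 fold change of -0.25 (SE 0.179, adjusted p = 0.2331) was not called, with a 95% interval of -0.60 to 0.10. 

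SLC7A5, the light chain LAT1 that carries leucine and other large neutral amino acids, had 686, 727 and 685 CPM in MITF overexpression libraries and 707, 692 and 750.3 CPM in empty vector libraries. These values overlapped, and the log2 fold change of -0.03 (SE 0.053, adjusted p = 0.5978) had a 95% interval of -0.14 to 0.07 and turned to 0.03 when libraries were scaled by total counts alone. Its near-identical copies could take some of its reads. SLC7A5P2 had 17.3, 19.1 and 21.5 CPM with overexpression and 9.84, 8.26 and 8.29 CPM with empty vector. Its log2 fold change was 1.10 (adjusted p = 5.147e-05). How reads that match several genes were treated was not given, so these counts do not bound the uncertainty of SLC7A5. SLC3A2, the heavy chain CD98 that brings SLC7A5 to the cell surface, had 331, 338 and 340.3 CPM with overexpression and 442, 379.6 and 419 CPM with empty vector. Every overexpression library was lower, by a log2 fold change of -0.30 (SE 0.050, adjusted p = 6.162e-06). Of the 3 genes whose windows hold the letters TGATGNAA shown above, CHAC1 thus rose, SLC3A2 fell and ASNS was not called; of the pair with CACGTG, ATF4 rose and SLC7A5 was not called.

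**Figure D1:**
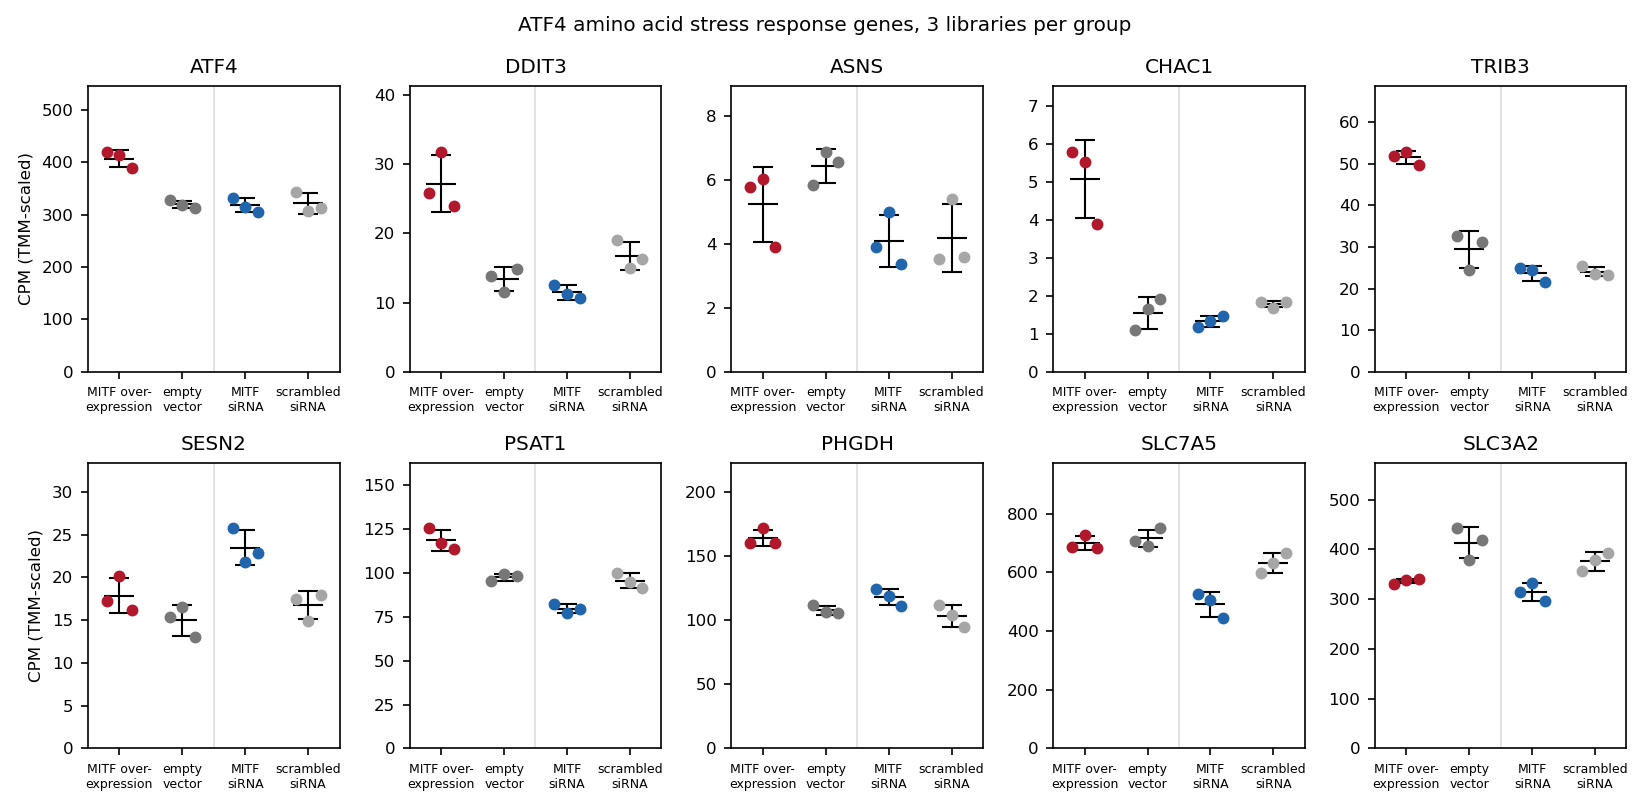
TMM-scaled CPM (vertical axes, from 0) of the 10 genes in each of the 12 libraries, by group; points are libraries, the long bar is the mean and the short bars its SD (n = 3). CHAC1, DDIT3 and TRIB3 stand apart in the MITF overexpression group, with means of 5.07, 27.2 and 51.5 CPM against 1.56, 13.4 and 29.4 CPM with empty vector, and SESN2 is highest with MITF siRNA at 23.5 CPM, against 16.8 CPM with scrambled siRNA.

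MITF siRNA against scrambled siRNA asked what less MITF does to the same genes. The transporter subunits both fell, SLC7A5 1.28-fold and SLC3A2 1.19-fold, DDIT3 fell 1.47-fold and PSAT1 1.20-fold, while SESN2 rose 1.40-fold and PHGDH 1.14-fold. ATF4, TRIB3, CHAC1 and ASNS were not called. In all, 2 of the 10 were called higher and 4 lower, where 35.4% of all tested genes were called, 18.7% higher and 16.7% lower. The median log2 fold change of the 10 was -0.15, against -0.0026 over all tested genes. The groups did not overlap for 6 of the 10 genes and for 44.4% of all tested genes.

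DDIT3 had 12.6, 11.2 and 10.6 CPM in MITF siRNA libraries and 19.0, 15.0 and 16.3 CPM in scrambled siRNA libraries. All MITF siRNA libraries were lower, by a log2 fold change of -0.55 (SE 0.114, adjusted p = 0.0004509). MARS, the overlapping gene, went the other way, with 176, 175 and 165 CPM with MITF siRNA and 159.6, 158 and 156 CPM with scrambled siRNA (log2 fold change 0.12, adjusted p = 0.031). ATF4 had 333, 315 and 306 CPM with MITF siRNA and 344, 308 and 312 CPM with scrambled siRNA. The values were interleaved, and the log2 fold change of -0.02 (SE 0.046, adjusted p = 0.8175) had a 95% interval of -0.11 to 0.07.

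TRIB3 had 24.9, 24.5 and 21.6 CPM in MITF siRNA libraries and 25.3, 23.5 and 23.3 CPM in scrambled siRNA libraries, with overlap and a log2 fold change of -0.03 (SE 0.080, adjusted p = 0.8256). CHAC1 had 1.19, 1.33 and 1.48 CPM with MITF siRNA and 1.84, 1.69 and 1.84 CPM with scrambled siRNA. All MITF siRNA libraries lay lower, but at 21 to 35 counts a library, against 24 to 25 with scrambled siRNA, the log2 fold change of -0.41 (SE 0.253, adjusted p = 0.2194) was not called. Its 95% interval ran from -0.90 to 0.09. SESN2 had 25.7, 21.8 and 22.9 CPM with MITF siRNA and 17.5, 15.0 and 17.9 CPM with scrambled siRNA. All MITF siRNA libraries were higher, by a log2 fold change of 0.48 (SE 0.093, adjusted p = 0.0001171).

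PSAT1 had 82.4, 77.1 and 79.7 CPM in MITF siRNA libraries and 100.2, 94.9 and 91.6 CPM in scrambled siRNA libraries. It was lower in all MITF siRNA libraries, by a log2 fold change of -0.26 (SE 0.051, adjusted p = 0.0001022). PHGDH, the enzyme just before it in the pathway, had 124, 119 and 111 CPM with MITF siRNA and 112, 104 and 94.5 CPM with scrambled siRNA. The groups overlapped at their edges, and the log2 fold change of 0.19 (SE 0.054, adjusted p = 0.005818) was lost without scrambled siRNA replicate 3 (0.12, adjusted p = 0.121). ASNS had 3.91, 4.99 and 3.38 CPM with MITF siRNA and 3.52, 5.41 and 3.60 CPM with scrambled siRNA. No difference was detectable at this depth (log2 fold change -0.05, SE 0.190, adjusted p = 0.869).

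SLC7A5 had 526, 506 and 444 CPM in MITF siRNA libraries and 598, 632 and 666 CPM in scrambled siRNA libraries, lower in all MITF siRNA libraries by a log2 fold change of -0.36 (SE 0.053, adjusted p = 4.15e-06). The uncertainty from its near-identical copies holds here too. SLC3A2 had 315, 333 and 297 CPM with MITF siRNA and 356, 378 and 394 CPM with scrambled siRNA, again with no overlap (log2 fold change -0.26, SE 0.050, adjusted p = 0.0001387). The light and the heavy chain of the transporter were thus both lower with MITF siRNA, whereas with MITF overexpression SLC3A2 alone of the pair was called.

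**Figure D2:**
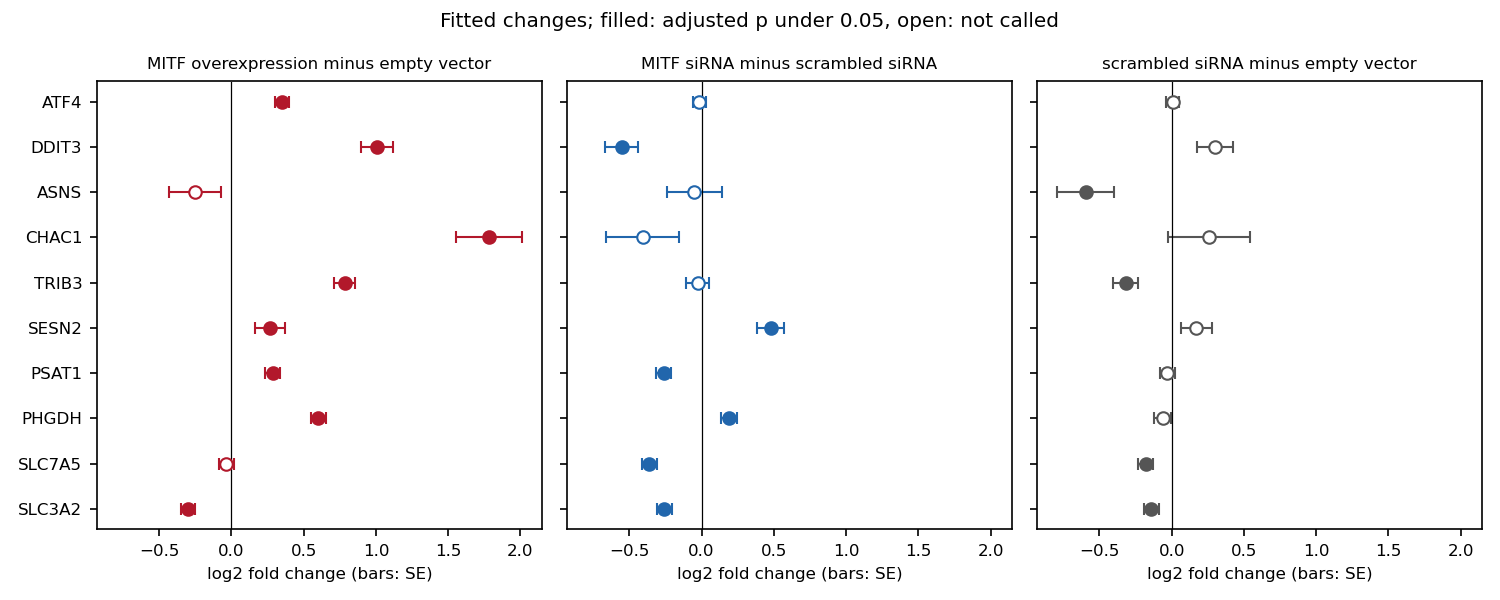
Log2 fold change (horizontal axes) of each of the 10 genes in 3 comparisons, with its SE as bars; filled points have an adjusted p under 0.05 and open points do not. With MITF overexpression the filled points lie to the right of 0 except SLC3A2 at -0.30, while with MITF siRNA SESN2 (0.48) and PHGDH (0.19) are to the right and SLC7A5, SLC3A2, PSAT1 and DDIT3 to the left.

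The overexpression and siRNA comparisons share no library, and the difference between their responses was tested in the same fit. It was called for 7 of the 10 genes, all with a more positive change under overexpression, where 56.9% of all tested genes were called, 27.1% in that direction and 29.8% in the other. CHAC1 had the largest difference of the 10, at 2.19 on the log2 scale (SE 0.347, adjusted p = 1.84e-06), followed by DDIT3 at 1.56 (SE 0.161, adjusted p = 6.115e-09). TRIB3 (0.81), PSAT1 (0.55), PHGDH (0.41), ATF4 (0.37) and SLC7A5 (0.33) followed, each with a SE of 0.111 or less. SESN2 (-0.21, SE 0.141, adjusted p = 0.2028), ASNS (-0.20, SE 0.261, adjusted p = 0.5309) and SLC3A2 (-0.04, SE 0.070, adjusted p = 0.6242) were not called.

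Of the 5 genes called in both comparisons, DDIT3 and PSAT1 were higher with overexpression and lower with siRNA, which is 40% of the 5. SESN2 and PHGDH were higher in both, and SLC3A2 was lower in both. The SESN2 call with overexpression and the PHGDH call with siRNA were lost when certain single libraries were left out, as given above. Over all tested genes, 3529 were called in both comparisons and 71.9% of those moved in opposite directions. The plot of the siRNA response against the overexpression response sets the 10 genes beside the ATF6 and XBP1 branches of the unfolded protein response, a neighbouring stress pathway described further on.

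**Figure D3:**
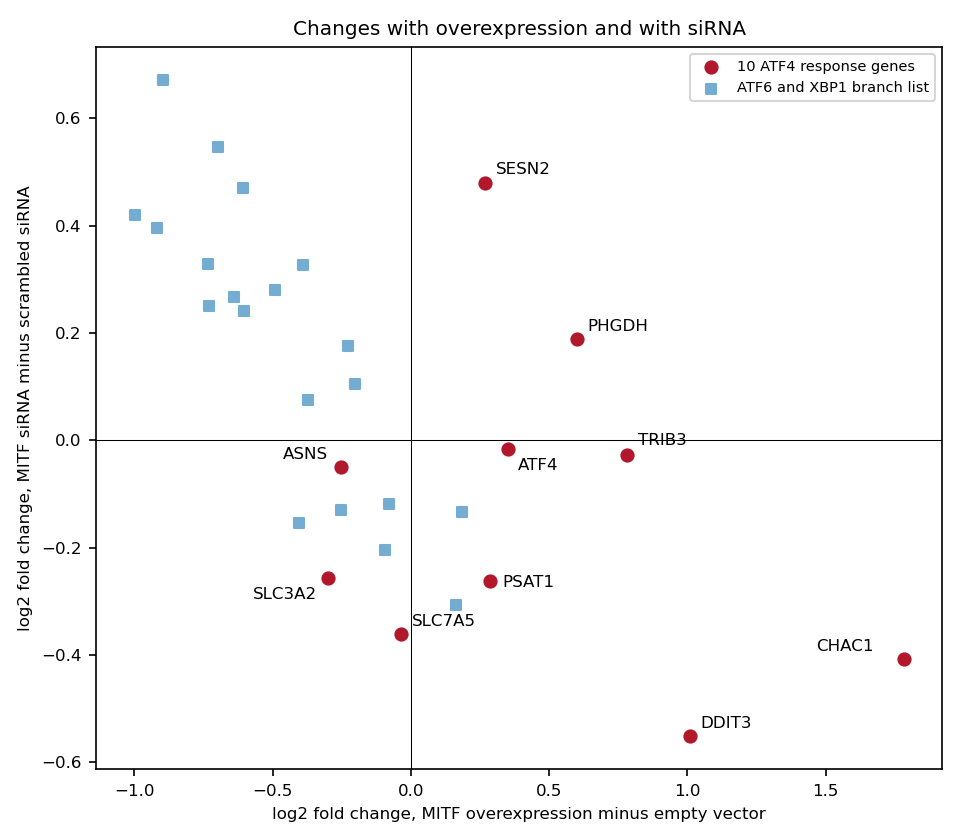
Log2 fold change with MITF siRNA (vertical axis) against that with MITF overexpression (horizontal axis) for the 10 ATF4 response genes (circles) and the 20 tested genes of the ATF6 and XBP1 branch list (squares). DDIT3 and CHAC1 lie at the lower right, SESN2 and PHGDH at the upper right, SLC3A2 at the lower left, and most squares at the upper left.

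Between the control groups, scrambled siRNA against empty vector, 0 of the 10 genes were called higher and 4 lower, where 38.5% of all tested genes were called, 18.9% higher and 19.6% lower. By edgeR at an unadjusted p under 0.05, 1 was higher, DDIT3, and DESeq2 and limma-voom also called 0 higher after adjustment. The method of delivery, the siRNA and the selection differ together between these groups and cannot be told apart. MITF itself averaged 467 CPM with scrambled siRNA and 304 CPM with empty vector (log2 fold change 0.62, adjusted p = 3.17e-11 by edgeR). The part of this gap in the calls was not tested. ASNS averaged 4.18 ± 1.07 CPM with scrambled siRNA and 6.43 ± 0.529 CPM with empty vector (SD, n = 3 each). Its log2 fold change of -0.59 (SE 0.196, adjusted p = 0.01688) stands beside -0.25 with overexpression and -0.05 with MITF siRNA. The call was lost on leaving out any of 4 libraries, empty vector replicates 2 (adjusted p = 0.0533) and 3 (0.0605) and scrambled siRNA replicates 1 (0.0745) and 3 (0.081). TRIB3 averaged 24.0 ± 1.12 CPM with scrambled siRNA and 29.4 ± 4.40 CPM with empty vector, with overlap (log2 fold change -0.32, SE 0.085, adjusted p = 0.003108); without empty vector replicate 1 the call was lost (adjusted p = 0.0672). SLC7A5 (log2 fold change -0.18, adjusted p = 0.008014) and SLC3A2 (-0.14, adjusted p = 0.02706) were lower too. SLC7A5 lost its call without empty vector replicate 3 (0.0749) or scrambled siRNA replicate 1 (0.0508), and SLC3A2 without empty vector replicate 1 (0.221) or 3 (0.109) or scrambled siRNA replicate 1 (0.14) or 2 (0.077), all adjusted p-values. DDIT3 averaged 16.8 ± 2.02 CPM with scrambled siRNA and 13.4 ± 1.69 CPM with empty vector, without overlap, and its log2 fold change of 0.30 (SE 0.124, adjusted p = 0.05856) fell just outside the call; leaving out empty vector replicate 3 (adjusted p = 0.0471), scrambled siRNA replicate 2 (0.0303), MITF overexpression replicate 2 (0.0313) or MITF overexpression replicate 3 (0.0446) brought it inside.

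Across all 4 groups, the order of the mean levels differed between the genes. ATF4, DDIT3 and CHAC1 shared the order MITF overexpression, scrambled siRNA, empty vector, MITF siRNA. The ratio of highest to lowest mean was 1.28 for ATF4, 2.37 for DDIT3 and 3.81 for CHAC1. For ATF4 and CHAC1 the libraries of neighbouring groups overlapped everywhere below the overexpression group, and for DDIT3 scrambled siRNA was also clear of empty vector. TRIB3 and PSAT1 had the order MITF overexpression, empty vector, scrambled siRNA, MITF siRNA, with ratios of 2.17 and 1.49; the overexpression group was clear of the next in both, and for PSAT1 scrambled siRNA was clear of MITF siRNA. PHGDH was highest with overexpression, clear of MITF siRNA, empty vector and scrambled siRNA in that order, which overlapped each other. SESN2 was the only one of the 10 with MITF siRNA at the top, clear of the other groups. ASNS, SLC7A5 and SLC3A2 were highest with empty vector and lowest with MITF siRNA. In the order of ASNS no neighbouring groups were apart; SLC7A5 separated overexpression from scrambled siRNA and scrambled siRNA from MITF siRNA, and SLC3A2 separated scrambled siRNA from overexpression.

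To see which genes moved most like ATF4 across the 12 libraries, the root mean square difference of centred log2 CPM was taken against 11004 tested genes whose mean was 1 log2 CPM or more. Pseudogenes, Y-linked genes, genes without a RefSeq match and symbols starting with LOC, LINC, MIR or SNOR were left out. The closest to ATF4 were CDYL (0.0517), BBS2 (0.0541), FASTKD1 (0.0549), CYFIP1 (0.055) and SLC39A10 (0.0551). Among the 10 response genes PSAT1 was closest to ATF4, at 0.117 and rank 565, followed by PHGDH at 0.132, and CHAC1 was farthest at 0.608. Closest to ASNS were IRX3 (0.181), DLGAP1-AS2 (0.215), ZNF879 (0.216), PAWR (0.219) and METTL6 (0.219), and the response gene nearest to ASNS was SLC7A5, at 0.277 and rank 227. The measure takes in both the size of a change and counting noise; their parts were not tested.

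Other genes tied to ATF4 were described by lists, whose counts are to be read against the 59.4%, 35.4% and 38.5% of all tested genes called with MITF overexpression, with MITF siRNA and between the controls. Of 18 further regulators and secreted stress factors, 16 were tested, and with MITF overexpression 5 rose and 7 fell (75% called), with a median log2 fold change of -0.070 and a mean of 0.32 that differ in sign. GDF15, a secreted stress cytokine, had 337, 373 and 339.8 CPM in MITF overexpression libraries and 182, 174 and 167 CPM in empty vector libraries (log2 fold change 1.00, SE 0.0554, adjusted p = 8.3e-15). NUPR1, a stress-induced chromatin protein, had 171 counts over the overexpression libraries and 3 counts over the empty vector libraries, a ratio of 31.4 with a 95% counting interval of 10.6 to 153.8. DDIT4, an inhibitor of mTORC1, had 155, 156 and 153 CPM with overexpression and 264, 256 and 257 CPM with empty vector, and fell (log2 fold change -0.75, adjusted p = 4e-15). With MITF siRNA 1 gene of this list rose and 4 fell (31.2% called, near the share of all genes), with a median of -0.18; GDF15 had 155, 176 and 183 CPM with MITF siRNA and 227, 247 and 245 CPM with scrambled siRNA (log2 fold change -0.48, adjusted p = 6.97e-08). Stress factors linked to ATF4 thus lay on both sides of 0 with overexpression.

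Of 13 other amino acid transporters 10 were tested, and with MITF overexpression 4 rose and 3 fell (70% called, median 0.15). SLC38A2, a transporter of small neutral amino acids, had 435, 429.7 and 414 CPM with overexpression and 284, 292 and 274 CPM with empty vector (log2 fold change 0.59, adjusted p = 4.19e-14). SLC7A11, the cystine transporter that shares the heavy chain SLC3A2 with SLC7A5, had 221, 226 and 241 CPM with overexpression and 463, 501 and 486 CPM with empty vector, and fell (log2 fold change -1.08, SE 0.0796, adjusted p = 1.12e-07). With MITF siRNA 1 rose and 4 fell (50% called, median -0.18), and SLC7A11 was lower there too, at 304, 323 and 290.1 CPM with MITF siRNA and 373, 396 and 477 CPM with scrambled siRNA (log2 fold change -0.44, adjusted p = 0.000796). SLC3A2 and SLC7A11 were therefore lower in both MITF comparisons.

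Of 13 further enzymes of amino acid and folate metabolism 12 were tested. With MITF overexpression 4 rose and 2 fell (median 0.055), so that 50% were called, against 59.4% of all tested genes. CBS (log2 fold change 0.76), CTH (0.84) and PCK2 (0.70) were among those that rose, CBS and CTH being the enzymes that make cysteine from homocysteine, while MTHFD1L, of mitochondrial folate metabolism, fell (-0.65, adjusted p = 1.81e-12). CBS had 74.1, 77.2 and 71.0 CPM with overexpression and 45.1, 44.0 and 42.2 CPM with empty vector, without overlap. With MITF siRNA 7 rose and 1 fell (66.7% called, median 0.21), led by ALDH18A1 of proline synthesis, at 142, 174 and 141 CPM with MITF siRNA and 101, 103 and 108 CPM with scrambled siRNA (log2 fold change 0.55, adjusted p = 7.95e-08). PSPH, which completes serine synthesis after PHGDH and PSAT1, had a log2 fold change of 0.00 with overexpression (adjusted p = 0.96) and of 0.22 with MITF siRNA (adjusted p = 0.015). The 3 serine synthesis genes thus did not move as a block in either comparison.

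The 21 aminoacyl-tRNA synthetase and tRNA export genes, all tested, split into 6 that rose and 9 that fell with MITF overexpression (71.4% called, median -0.047); 28.6% of them rose, the same share as over all tested genes. With MITF siRNA 12 rose and 1 fell (61.9% called, median 0.13); EPRS rose by 0.38 on the log2 scale (adjusted p = 2.05e-07) and IARS fell (-0.36, adjusted p = 6.07e-08). Upstream of ATF4, among 15 genes of the eIF2 kinases, eIF2 and eIF2B, 1 rose and 6 fell with overexpression (median -0.11). This is 46.7% called, below the 59.4% over all tested genes. Those that fell include EIF2AK4, which encodes GCN2 (log2 fold change -0.34, adjusted p = 1.33e-07), and EIF2B1 (-0.37). With MITF siRNA 4 rose and 3 fell (46.7% called, median 0.045), including EIF2AK3, which encodes the kinase PERK (0.31, adjusted p = 0.00206). Between the controls, 42.9% of the synthetase list and 46.7% of the eIF2 list were called, near the 38.5% of all tested genes.

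DDIT3 and TRIB3 also respond to stress of the endoplasmic reticulum, whose other branches run through ATF6 and XBP1. Of 20 genes of these branches, all tested, 1 rose and 16 fell with MITF overexpression (85% called, median -0.45), whereas 11 rose and 2 fell with MITF siRNA (65% called, median 0.25). PDIA4, a disulfide isomerase of the endoplasmic reticulum, had 174, 172 and 184 CPM with overexpression and 352, 355 and 350.4 CPM with empty vector, and fell by 1.00 on the log2 scale (SE 0.0449, adjusted p = 9.23e-20). CRELD2, a secreted ATF6 target, had 64.0, 67.9 and 64.1 CPM with MITF siRNA and 43.2, 40.3 and 39.6 CPM with scrambled siRNA (log2 fold change 0.67, SE 0.0559, adjusted p = 1.38e-11). Of the 13 genes of this list called in both comparisons, 11 were lower with overexpression and higher with siRNA, and SEL1L and EDEM1 were lower in both. The 7 response genes that rose with overexpression did so in libraries where 16 of these 20 genes fell. Any link between these changes was not tested.

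SESN2 belongs with the amino acid sensors upstream of mTORC1. Of 18 other genes of that group, all tested, 11 rose and 2 fell with MITF overexpression (72.2% called, median 0.25), and 5 rose and 3 fell with MITF siRNA (44.4% called, median -0.087). RRAGD, a Rag GTPase, had 116, 119 and 109 CPM with overexpression and 51.2, 47.6 and 49.2 CPM with empty vector (log2 fold change 1.21, SE 0.0572, adjusted p = 3.62e-19). With MITF siRNA it had 43.2, 44.6 and 46.4 CPM, against 72.5, 72.7 and 64.6 CPM with scrambled siRNA (log2 fold change -0.64, adjusted p = 4.84e-11). RRAGD thus moved in opposite directions in the MITF comparisons, while SESN2 was called higher in both, with overlapping groups under overexpression. Between the controls, 41.7% of the enzymes, 45% of the ATF6 and XBP1 list and 50% of the transporters were called, against 38.5% of all tested genes. The share was 56.2% for the regulators and secreted factors (4 rose and 5 fell) and 66.7% for the mTORC1 group (9 rose and 3 fell).

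**Figure D4:**
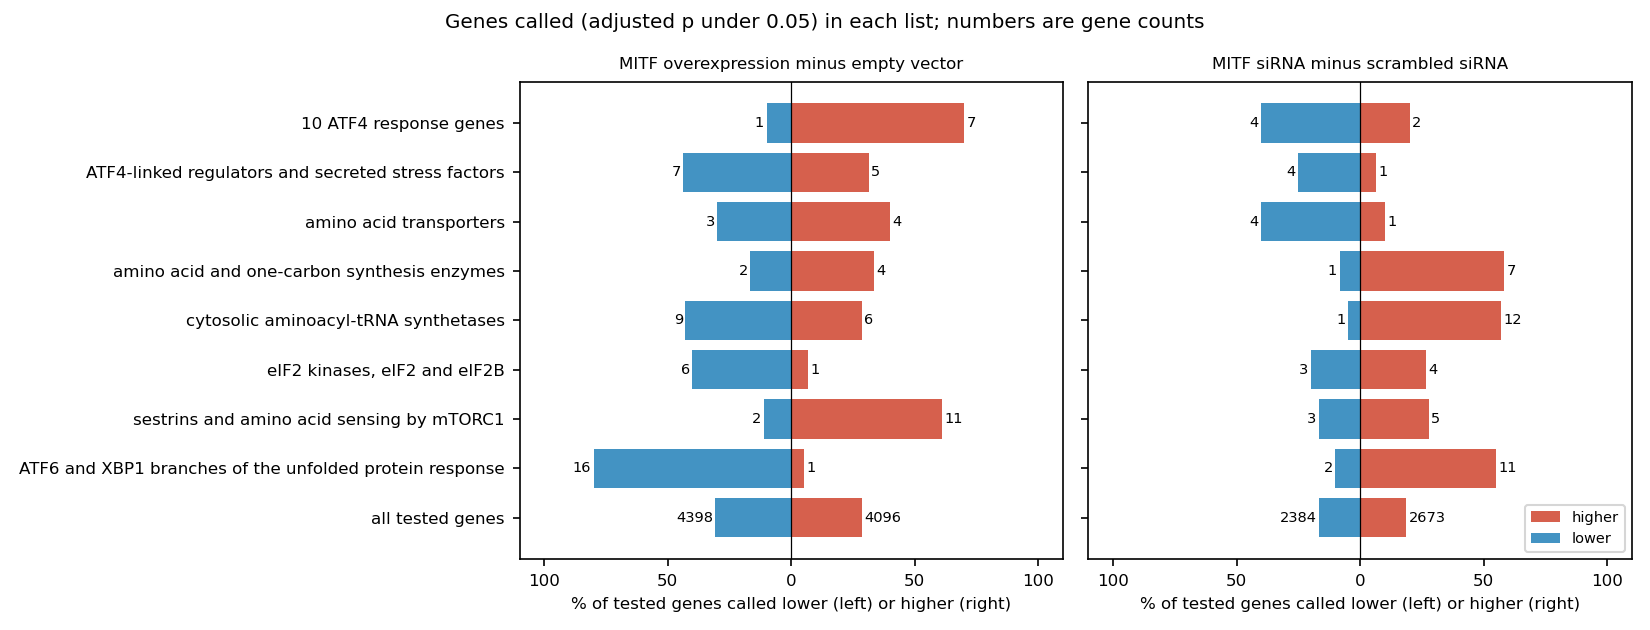
Share of the tested genes of each list called higher (to the right) or lower (to the left) at an adjusted p under 0.05, in percent, for MITF overexpression minus empty vector and for MITF siRNA minus scrambled siRNA; the number beside each bar is the count of genes. The 10 ATF4 response genes have 7 higher and 1 lower with overexpression, where the ATF6 and XBP1 branch list has 1 higher and 16 lower; with siRNA that list has 11 higher and 2 lower.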

How the data were processed

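RNA was counted in 12 libraries of A2058 cells (stranded total RNA, paired-end reads, per the labels' protocols). The authors deposited raw whole-number counts for 26364 genes in each library. Per the submitters' processing notes, featureCounts 1.6.3, STAR 2.6.0, SAMtools 1.10, bcl2fastq 2.18.0 and build hg19 were used; for strand and for reads that match several genes, settings were not given in the sources used here. 0 rows lacked a gene and 0 columns went unused. Library totals ran from 7427637 to 23938392, so that 3 counts, set here as an approximate floor for a count of 0, are 0.125 to 0.404 CPM. The 95% intervals of log2 fold changes come from the SE of the fit, which takes in the spread between libraries. They use a normal quantile and not the degrees of freedom of the test, so they may be too narrow. The counting interval of NUPR1 and the floors cover counting error only.

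Genes were kept by filterByExpr with a minimum count of 10 (14297 genes), libraries were scaled by TMM, and 4 group means were fitted at once with edgeR 4.0.16 (quasi-likelihood, robust) under R 4.3.3 with limma 3.58.1. Benjamini-Hochberg adjusted p-values over all tested genes under 0.05 were called. A standard error is the log2 fold change divided by the square root of F. Alternatives were DESeq2 (1.42.0), its size factors, total counts alone, no filter, limma-voom, only the compared groups, a replicate block and leaving out each library. The steps were also run on simulated data in which a small share of genes changed, equally up and down. Changes as broad as those seen here were not simulated, nor was the difference of responses. Likeness used centred log2 CPM with a prior count of 2.

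The members and lists were chosen with earlier results of these data known. The text names all 10 members, and from each list up to 4 called genes per comparison by adjusted p, of which a part is given; PSPH, CTH, PCK2, MARS, SLC7A5P2, SEL1L and EDEM1 are named for their place beside a result. The level of 1 marker gene is not reported here. In the RefSeq gene table (GRCh38.p14) 23629 symbols matched; sequences and coordinates are that table's, not the authors' build.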

Additional observations from a re-analysis of the deposited data

How the results depend on the processing

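Over 7 other settings and 12 left-out libraries, 713 of 750 values of the 10 genes kept their direction and their side of the threshold. Scaled by total counts alone, the log2 fold change of SLC7A5 with overexpression turned to 0.0293 and the difference of responses of SLC3A2 to 0.0502, neither called. With DESeq2, SESN2 lost its call with overexpression, leaving 6 genes higher. Between the controls, DDIT3 was called higher with no filter (0.31, adjusted p = 0.0133 by edgeR) and with only the compared groups in the fit (0.31, adjusted p = 0.036), making 1 gene higher. The cause was not tested.

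With 1 library left out, the 10 genes called higher with overexpression numbered 6 to 7 and lower 1 to 1, with MITF siRNA 1 to 2 and 4 to 4, between controls 0 to 1 and 1 to 4, and for the difference 7 to 7 and 0 to 0. Over all genes the calls ran from 7662 to 8776, 4119 to 5148, 4622 to 5843 and 7576 to 8054. Values near 0 changed sign among these fits: SLC7A5 with overexpression (-0.0675 to 0.00217), ATF4 (-0.0548 to 0.0364), ASNS (-0.229 to 0.179) and TRIB3 (-0.0679 to 0.0311) with MITF siRNA, ATF4 (-0.0448 to 0.0427), CHAC1 (-0.0168 to 0.468), PSAT1 (-0.0649 to 0.00835) and PHGDH (-0.122 to 0.00492) between controls, and SLC3A2 for the difference (-0.0907 to 0.0127). None of these was called.

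No pairing of libraries by replicate number was detected: deviations of same-numbered libraries correlated at -0.043 to 0.0519, and 0 of 6, 2 of 6 and 2 of 6 libraries correlated best with their own number. With 3 libraries per group, this check could miss a weak shared batch or one limited to some genes. A replicate block left the member counts at 7 and 1, 2 and 4, 0 and 4, and 7 and 0, with 8408, 4960, 5394 and 8065 genes called in all, against 8494, 5057, 5502 and 8134 without the block. At 12 to 35 counts a library in 3 groups, depth limits CHAC1, and at 46 to 127 it limits ASNS.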
